A study of Mus musculus with 23 samples.

Results

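Liver RNA sequencing libraries from C57BL/6J mice, a widely used inbred strain, that received vehicle alone were compared between the 2 batches of the study. The rule took the libraries labelled Veh in batch 1 (4 libraries) and in batch 2 (4 libraries), which are 8 of the 23 libraries of the series, and used all genes of the count table. No recombinant protein was given to either group. The other 15 libraries came from LBP (batch 1, 3 libraries) and from EPDR1, FCN2 and FSTL3 (batch 2, 4 each), proteins given at 1 µg per g of body weight in 3 injections with a day between them. Strain, tissue and treatment are labelled alike in both vehicle groups, and the labels state nothing of age, sex, feeding state, hour of collection or what a batch comprised. Each library started from 800 ng of total RNA. The labels number the samples without saying that each is a separate mouse, so the p-values describe how far these libraries scatter, and part of that scatter may be technical. Each group lies in 1 batch, so whatever else a batch comprised cannot be told apart from it.

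The liver keeps time with a transcriptional clock. BMAL1 (encoded by Arntl) and CLOCK or NPAS2 bind E-boxes and switch on the Per and Cry repressors, the nuclear receptors Nr1d1 and Nr1d2, and the output factors Dbp, Tef and Hlf, which bind D-boxes. The Nr1d receptors repress Arntl, Clock, Npas2 and Nfil3 through ROR elements, so the Per/Dbp arm and the Bmal1 arm peak at opposite times of day. Feeding, fasting and the pulses of growth hormone in males also shape liver transcripts over the day, among them genes of lipid, sugar and bile acid metabolism and the major urinary proteins.

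Promoters of clock genes are printed first, because E-boxes, D-boxes and ROR elements are the sites through which the clock factors described below act. Sequences are the 250 bases before a transcript start, from RefSeq on GRCm38.p6, written 5′ to 3′ along the gene. Motifs found on either strand are in capitals: the E-box CACGTG, the D-box TTANGTAA, the cyclic AMP response element TGACGTCA and the ROR element core TAGGTCA, read as TGACCTA on the other strand. Of the Per/Dbp arm, 10 of 12 genes had a promoter in the table, and of the Bmal1 arm 4 genes. The examples below are Ciart (chr3:95882229-95882478, minus strand), with 3 E-boxes, Per1 (chr11:69098699-69098948, plus strand) and Bhlhe41 (chr6:145865421-145865670, minus strand), with 1 each, Per3 (chr4:151044666-151044915, minus strand), with 2 D-boxes, and Nfil3 (chr13:52981040-52981289, minus strand), with a ROR element core.
Ciart: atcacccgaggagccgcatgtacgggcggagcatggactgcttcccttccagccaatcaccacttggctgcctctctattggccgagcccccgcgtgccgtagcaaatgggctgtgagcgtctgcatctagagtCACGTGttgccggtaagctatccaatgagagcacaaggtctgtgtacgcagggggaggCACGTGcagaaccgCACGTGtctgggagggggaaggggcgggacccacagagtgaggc
Per1: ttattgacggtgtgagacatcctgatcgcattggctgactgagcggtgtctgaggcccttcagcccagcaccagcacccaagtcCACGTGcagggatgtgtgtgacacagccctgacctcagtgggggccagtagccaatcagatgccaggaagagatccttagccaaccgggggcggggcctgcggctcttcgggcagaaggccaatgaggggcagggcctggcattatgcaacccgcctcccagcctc
Bhlhe41: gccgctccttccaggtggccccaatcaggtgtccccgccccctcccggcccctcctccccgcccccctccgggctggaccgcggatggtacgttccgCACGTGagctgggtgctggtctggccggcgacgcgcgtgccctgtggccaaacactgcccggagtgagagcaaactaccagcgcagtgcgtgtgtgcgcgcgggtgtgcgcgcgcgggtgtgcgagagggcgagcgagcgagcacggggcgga
Per3: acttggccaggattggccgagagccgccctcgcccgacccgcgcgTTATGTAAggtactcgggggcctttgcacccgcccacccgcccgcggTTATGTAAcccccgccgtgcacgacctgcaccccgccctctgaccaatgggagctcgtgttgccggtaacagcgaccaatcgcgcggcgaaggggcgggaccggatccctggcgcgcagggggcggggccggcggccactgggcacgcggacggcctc
Nfil3: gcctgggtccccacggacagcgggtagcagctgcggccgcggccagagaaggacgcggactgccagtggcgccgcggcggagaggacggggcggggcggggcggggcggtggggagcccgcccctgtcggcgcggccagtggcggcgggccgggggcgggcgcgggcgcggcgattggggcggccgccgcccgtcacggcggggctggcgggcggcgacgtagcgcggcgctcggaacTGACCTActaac
An E-box was present for 4 of the 10 matched genes of the Per/Dbp arm (Ciart, Per1, Bhlhe41 and Tef) and for Cry1 in the Bmal1 arm, while 6.86% of the 27025 genes in the table held one. A D-box was found in Per3 and, among the remaining clock genes, in Timeless (2.44% of genes). A cyclic AMP response element was found in Hlf (1.77%) and a ROR element core in Nfil3 (2.55%). Another promoter of Per1 (chr11:69099902-69100151, plus strand) held none of the 4 motifs. The windows of Dbp, Usp2, Nr1d1, Nr1d2, Arntl and Clock held none of the 4 motifs. A match describes the letters of this window only.

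Total gene counts ran from 773499 to 8286793 in batch 1 and from 2517701 to 21892416 in batch 2. Of the 54838 genes counted, 9928 had enough reads to be tested. Chi-square per degree of freedom between replicates of a batch was 2.47 to 18. No option for pairs was set in the counting, so both reads of a pair may have been counted, which raises these values. The lowest of them is therefore not read as more than sampling noise. Pearson correlations of log2 CPM between libraries were 0.95 to 0.985 within batch 1, 0.964 to 0.979 within batch 2 and 0.886 to 0.948 between batches. Reads from the Y chromosome were present in all 8 libraries: Ddx3y had 47 to 1634 counts and Eif2s3y 44 to 1746, while Xist, the RNA that silences the second X chromosome of females, had 0 counts in 7 libraries and 5 in the other. Levels are CPM, read counts divided by library totals that TMM factors had adjusted for composition. Fold changes are log2 of batch 2 over batch 1 ± SE, and adjusted p-values come from the quasi-likelihood test of edgeR with Benjamini-Hochberg adjustment over all 9928 genes. A gene was called at an adjusted p under 0.05, and n is 4 libraries in each batch throughout.

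Differences between the vehicle groups were spread over a large share of the liver transcriptome. Of 9928 genes, 3962 (39.9%) were called, of which 1905 (19.2%) were higher in batch 2 and 2057 (20.7%) higher in batch 1. The 4 libraries of one batch lay entirely above the 4 of the other for 3572 genes (36%). A gene group with close to 19.2% of its members higher in batch 2, or 20.7% higher in batch 1, stands where all tested genes stand. Most called differences were small: 314 genes (3.16%) were at least 2-fold higher in batch 2 and 426 (4.29%) at least 2-fold higher in batch 1, and at least 4-fold differences were seen for 32 (0.322%) and 28 genes (0.282%). Among genes that averaged at least 5 CPM in the higher batch and did not overlap, Arntl had the largest excess in batch 2 and Dbp the largest in batch 1, and these belong to opposite arms of the clock.

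Transcript base composition moved with the comparison. Genes called higher in batch 1 had a median GC content of 54.6%, those called higher in batch 2 of 44.5% and all tested genes of 49.1%. The plot of fold change by GC content shows, over 10 bins of 992 or 993 genes, a median of 0.39 in the bin with the lowest GC and of -0.613 in the bin with the highest. GC weighted by reads was 48.3% to 48.7% in the 4 libraries of batch 1 and 46.6% to 47.1% in those of batch 2. Removing each library's trend with GC, an alternative chosen after the data had been seen, left 2838 called genes (1468 higher in batch 2, 1370 higher in batch 1), and 2228 of the 3962 calls (56.2%) were kept with their direction. The part of GC in any single result was not tested, and counts or fold changes with the trend removed are given beside the gene groups below.

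**Figure D1:**
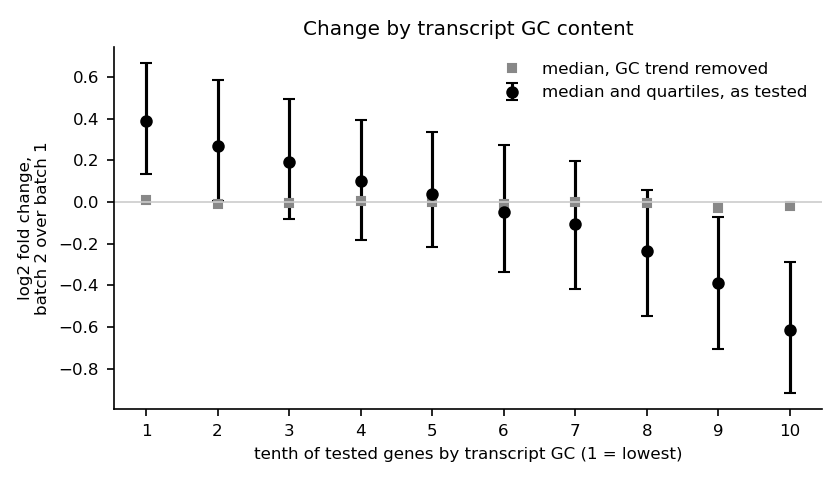
Log2 fold change of batch 2 over batch 1 (vertical axis) in 10 bins of the tested genes ordered by transcript GC content (horizontal axis). Black points and bars are medians and quartiles as tested, falling from 0.39 to -0.613. Grey squares are medians after each library's GC trend was removed, which lie within 0.031 of 0.

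The Per/Dbp arm of the clock was higher in batch 1 almost throughout. All 12 members were measured, 11 were called higher in batch 1 and 0 higher in batch 2, with a median log2 fold change of -2.01 (the median over all tested genes was -0.017), and 11 were called with a median of -1.79 with the GC trend removed. The groups did not overlap for 10 of the 12. Over the 8 fits that each leave out 1 library, 10 to 12 members were called.

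Dbp, a D-box binding factor that drives daily rhythms of liver enzymes (chromosome 7, 45705088 to 45710203), had 63.7, 73.3, 100.2 and 74.7 CPM in the libraries of batch 1 and 0.787, 1.73, 7.47 and 11.9 CPM in those of batch 2. Every library of batch 1 lay above every library of batch 2, a 21.3-fold difference (log2 -4.42 ± 0.64, adjusted p = 0.00196), and the batch 2 libraries differed among themselves by a wide margin. Ciart, a repressor of CLOCK-BMAL1, had 3.37, 4.89, 9.14 and 8.95 CPM in batch 1 and 0.525, 0.578, 0 and 0 CPM in batch 2, where replicates 3 and 4 had no read (log2 -3.94 ± 0.46, adjusted p = 8.34e-06). Usp2, a deubiquitinase under clock control, had 27.7, 36.6, 42.8 and 34.6 CPM against 3.41, 5.68, 5.71 and 2.61 CPM (log2 -2.91 ± 0.21, adjusted p = 8.84e-08). Both genes were separated without overlap.

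The 3 Period genes, which encode repressors of the loop, were all higher in batch 1. Per1 had 26.2, 29.3, 27.1 and 34.3 CPM in batch 1 and 2.62, 4.43, 3.08 and 7.09 CPM in batch 2 (log2 -2.75 ± 0.22, adjusted p = 2.12e-07). Per3 had 27, 30.5, 29 and 28.4 against 2.62, 3.23, 7.03 and 6.71 CPM (log2 -2.78 ± 0.23, adjusted p = 4.45e-07). Per2 had 23.6, 28.1, 23.4 and 22.5 against 6.83, 10.6, 8.35 and 9.32 CPM (log2 -1.37 ± 0.17, adjusted p = 1.34e-05). For each of them the lowest library of batch 1 stood above the highest of batch 2, and the spread among the batch 1 libraries was narrow.

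The other D-box factors were higher in batch 1 too. Tef had 184, 194, 206 and 167 CPM in batch 1 and 39.4, 50.03, 72.5 and 71.6 CPM in batch 2 (log2 -1.71 ± 0.17), and Hlf differed less (log2 -0.58 ± 0.12, adjusted p = 0.0014). The repressors Bhlhe40 (log2 -1.3 ± 0.17) and Bhlhe41 (log2 -2.31 ± 0.31) were separated without overlap, with batch 1 above. The Nr1d receptors, REV-ERBα and REV-ERBβ, were the least separated of the arm. Nr1d1 had 36.4, 39.1, 77.2 and 66 CPM in batch 1 and 29.4, 36.5, 39.5 and 39.2 CPM in batch 2, with overlapping groups (log2 -0.68 ± 0.22, adjusted p = 0.0243). Its call was lost in 5 of the 8 fits that leave out 1 library (batch 1 replicates 3 and 4, and batch 2 replicates 1, 2 and 4, log2 -0.44 to -0.71, adjusted p 0.0585 to 0.0987) and with the GC trend removed (log2 -0.25). Nr1d2 was not called (log2 -0.37 ± 0.17, adjusted p = 0.0887), but was called higher in batch 1 with the GC trend removed (log2 -0.67) and without batch 2 replicate 3 (-0.48) or 4 (-0.46).

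**Figure D2:**
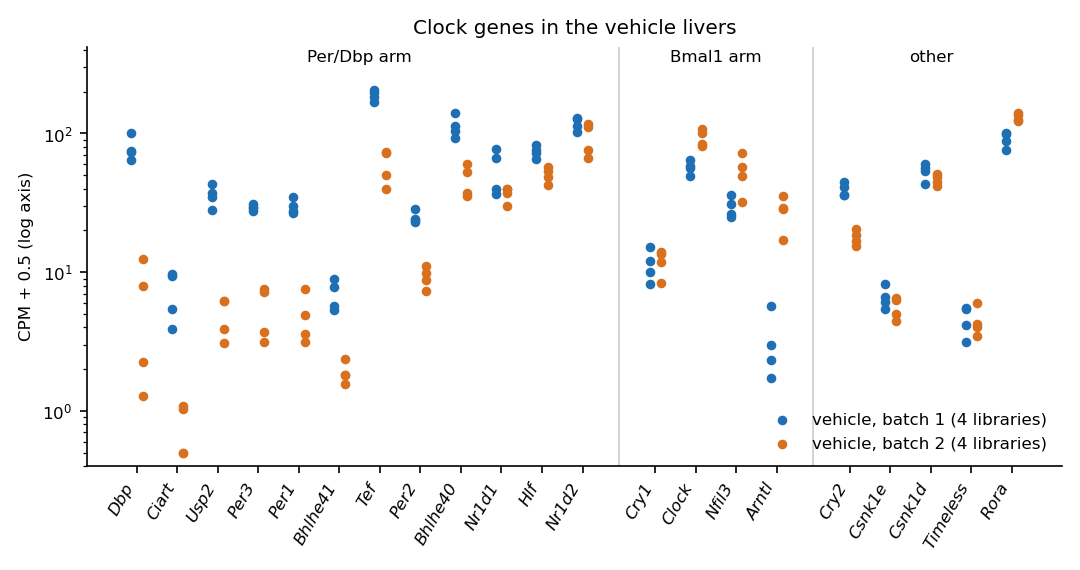
Levels of the tested clock genes that the text names (CPM plus 0.5, log axis) in the 4 vehicle libraries of batch 1 (blue) and the 4 of batch 2 (orange), 1 point per library. Dbp runs from 63.7 to 100.2 CPM in batch 1 and from 0.787 to 11.9 CPM in batch 2, while Arntl has the opposite order.

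The Bmal1 arm was higher in batch 2 for 3 of the 5 tested members, and 1 was higher in batch 1, with a median of 0.72 (the same counts and a median of 0.38 with the GC trend removed). Arntl (chromosome 7, 113207465 to 113314126), which encodes BMAL1, had 5.25, 1.22, 1.83 and 2.47 CPM in batch 1 and 34.6, 28.5, 16.7 and 28 CPM in batch 2, a 10.5-fold difference without overlap (log2 3.39 ± 0.31, adjusted p = 2.07e-06). Clock, its partner, had 64.1, 56.2, 49.2 and 58 CPM against 107, 100.5, 83.5 and 80.2 CPM (log2 0.72 ± 0.13, adjusted p = 3.18e-04). Its fold change was 0.38 with the GC trend removed. Nfil3, a repressor at D-boxes, had 30.4, 35.4, 24.7 and 25.6 CPM against 49.1, 72, 56.7 and 31.3 CPM, and its groups overlapped, as replicate 4 of batch 2 lay inside the range of batch 1 (log2 0.95 ± 0.22, adjusted p = 0.00384).

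Cry1, a repressor that peaks late, was not called (log2 0.23 ± 0.21, adjusted p = 0.417). Npas2, a second partner of BMAL1, had too few reads to be tested: 1 count in all in batch 1 (0, 0, 1 and 0) and 75 in batch 2 (13, 55, 2 and 5). Its ratio of pooled counts per total was 34.8 (exact 95% interval 6.05 to 1390, which covers counting error only). The interval takes each counted read as independent, so it is too narrow if both reads of a pair were counted. Among the remaining clock genes Cry2 was higher in batch 1 (log2 -1.17 ± 0.14), Rora was higher in batch 2 (log2 0.54 ± 0.11, and 0.18 and not called with the GC trend removed), and Csnk1d (-0.24), Csnk1e (-0.28) and Timeless (-0.15) were not called.

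A contrast of the arms was computed in each library as the median log2 CPM over members of the Per/Dbp arm less the median over the Bmal1 arm. It was 0.0639, 0.0941, 1.18 and 0.887 in the 4 libraries of batch 1 and -3.1, -2.14, -2.53 and -1.53 in those of batch 2, so that all of batch 1 lay above 0 and all of batch 2 below. The difference of the means was -2.88. It is a summary of genes already described, and no p is read from it.

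The same contrast was read in the 15 libraries that received a protein, as a description. In batch 2 it was -2.91 to -1.55 with EPDR1 and -3.32 to -2.33 with FCN2, which overlap the vehicle of that batch. With FSTL3 it was 1.09 to 1.78, above every vehicle library of batch 2. The FSTL3 libraries also stood apart in composition, with small structural RNA at 0.667% to 0.753% of counts against 0.0056% to 0.00773% in the vehicle of batch 2. With LBP in batch 1 it was -0.586, 1.48 and -0.476, so that 2 libraries lay below the vehicles of batch 1 and 1 above them. LBP replicate 2, the first of these, stood apart as well, with albumin at 0.211% of its counts against 6.87% or more in the vehicles of batch 1.

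**Figure D3:**
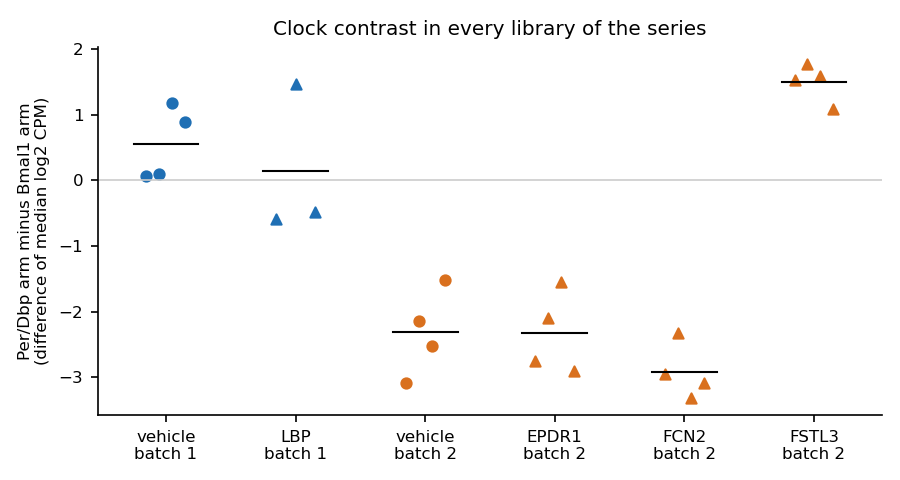
Contrast of the clock arms (median log2 CPM, Per/Dbp members less Bmal1 members, vertical axis) in all 23 libraries by group, with a line at each group's mean. Circles are vehicles and triangles are proteins, blue for batch 1 and orange for batch 2. The vehicles of batch 1 lie between 0.064 and 1.18 and those of batch 2 between -3.09 and -1.52.

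Known clock-driven outputs of the liver differed in both directions. Of 24 tested genes of the list, 10 were higher in batch 1 and 6 higher in batch 2, with the same counts after the GC trend was removed. Por, the reductase that feeds electrons to cytochromes P450, had 554, 602, 592 and 674 CPM in batch 1 and 208, 171, 181 and 132 CPM in batch 2 (log2 -1.8 ± 0.13, adjusted p = 7.66e-08). Wee1, a kinase that holds back mitosis, had 16.1, 11, 22.7 and 15.1 CPM against 2.1, 2.26, 3.51 and 2.24 CPM (log2 -2.88 ± 0.25). Tspan4 was lower in batch 2 (log2 -1.4 ± 0.14). Tfrc, the transferrin receptor, was higher in batch 2, with 14.2, 14.7, 16.2 and 17.9 CPM in batch 1 and 62.5, 55.4, 39.97 and 42.1 CPM in batch 2 (log2 1.66 ± 0.16).

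Under the same limits on level and overlap, the 10 genes with the largest excess in batch 2 were Arntl, Cyp2c69, Cdkn1a, Mup18, Mup8, Mup-ps18, Mup13, Cyp2c40, Mup16 and Mup-ps22. Cdkn1a, the cell cycle inhibitor p21, had 1.88, 2.44, 0.571 and 0.617 CPM in batch 1 and 9.97, 13.2, 4.39 and 5.59 CPM in batch 2 (log2 3.29 ± 0.47, adjusted p = 8.30e-05). Cyp2c69 (log2 3.37 ± 0.38) and Cyp2c40 (log2 2.81 ± 0.41) are cytochromes P450 of a family of close paralogs. The Mup genes are near-identical copies of one another, so reads may have been assigned unevenly among them and values of single copies are uncertain.

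The 10 genes with the largest excess in batch 1 were Dbp, Rgs16, Mfsd2a, Ciart, Acot3, Scand1, Usp2, Wee1, Bri3 and Ccdc85b. Rgs16, a regulator of G protein signalling, had 12, 9.77, 50.7 and 29.6 CPM in batch 1 and 1.31, 0.867, 2.2 and 4.85 CPM in batch 2 (log2 -4.23 ± 0.77, adjusted p = 0.00517). Mfsd2a, a lysophospholipid transporter induced by fasting, had 67.5, 91.6, 31.1 and 81.5 CPM against 3.94, 3.9, 3.51 and 4.1 CPM (log2 -4.03 ± 0.38, adjusted p = 6.17e-05). The batch 2 values of Mfsd2a were almost equal to one another. Acot3, a peroxisomal acyl-CoA thioesterase, had 21.7, 22, 23.4 and 22.8 CPM against 0.787, 2.75, 2.64 and 1.86 CPM (log2 -3.31 ± 0.23), and Bri3 had 58.1, 68.4, 53.9 and 47.8 CPM against 8.14, 8.28, 7.03 and 7.46 CPM (log2 -2.81 ± 0.15). Scand1 (log2 -2.92 ± 0.28) has a transcript GC content of 68.4%, and its fold change was -2.27 with the GC trend removed.

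Major urinary proteins, pheromone carriers that male mouse liver secretes in large amounts, were higher in batch 2. Of 20 tested protein-coding Mup genes 19 were called, all higher in batch 2, with a median log2 fold change of 2.06 (17 called and a median of 1.77 with the GC trend removed). Together the Mup genes and pseudogenes took 1.37, 1.37, 1.5 and 1.4% of counts in the libraries of batch 1 and 3.19, 3.64, 3.34 and 2.62% in those of batch 2. This summed share does not depend on how the counted reads were split among copies. It can still depend on which reads matched a single copy, since no option for multiply mapped reads was set. Mup3 had 8360, 8189, 9937 and 9190 CPM in batch 1 and 17720, 17790, 18780 and 18940 CPM in batch 2 (log2 1.04 ± 0.11, adjusted p = 2.89e-06). Mup18 had 3.37, 3.66, 3.08 and 6.48 CPM in batch 1 and 33.9, 47.8, 50.1 and 17.2 CPM in batch 2 (log2 3.24 ± 0.4), Mup14 a log2 fold change of 1.98 ± 0.13 and Mup6 of 2.31 ± 0.18.

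A wider list of genes that are higher in male than in female liver, which includes 8 of the Mup genes, had 18 of 19 tested members higher in batch 2 and 1 higher in batch 1 (Cyp2d9, log2 -0.39), with a median of 1.44 (14 and 0 with the GC trend removed, median 1.16). Elovl3, a fatty acid elongase, had 160.1, 197, 117 and 152 CPM in batch 1 and 675, 500, 371 and 499 CPM in batch 2 (log2 1.74 ± 0.18, adjusted p = 1.85e-05). Ugt2b38, a glucuronosyltransferase, had 4.5, 7.33, 7.2 and 4.94 against 45.9, 40.8, 36.5 and 34.3 CPM (log2 2.71 ± 0.18). Cyp7b1, an oxysterol hydroxylase, had 171, 199, 177 and 237 against 598, 634, 581 and 290.2 CPM (log2 1.43 ± 0.23). All 3 were separated without overlap, as was Mup21 (log2 1.28 ± 0.14). Of 14 female-biased genes 2 had enough reads to be tested and 12 had 174 counts or fewer in either batch. The 1 called was Acot3, described above, and the other tested gene had a log2 fold change of -0.29. Fits without 1 library keep other genes for testing as well. There a member was called higher in batch 2 without any 1 of the 4 libraries of batch 1 or batch 2 replicate 4. Cyp2c69 and Cyp2c40, named above as higher in batch 2, are in neither list, and the lists do not cover every sex-biased gene.

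The growth hormone axis, which sets male and female patterns in liver, had few calls. Of 14 tested genes 2 were higher in batch 2 and 2 higher in batch 1, and none was called with the GC trend removed. Ghr, the growth hormone receptor, had 595, 578, 601 and 561 CPM in batch 1 and 747, 778, 809 and 919 CPM in batch 2 (log2 0.48 ± 0.1), and Igf1 had 439.8, 420.2, 559 and 586 against 796, 837, 764 and 972 CPM (log2 0.74 ± 0.12, adjusted p = 1.97e-04). Igfals (log2 -0.64 ± 0.15) and Igfbp4 (log2 -0.42 ± 0.1), which encode partners of IGF1 in plasma, were higher in batch 1. Without batch 2 replicate 2, 4 genes were called higher in batch 2.

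Of 19 tested genes of fatty acid synthesis 10 were called higher in batch 1 and 0 higher in batch 2, with a median of -0.48 (9 and 1 with the GC trend removed). Without batch 1 replicate 3, 2 were called higher in batch 2, and without batch 2 replicate 2, 1 was. Srebf1, the transcription factor that drives lipogenesis, had 131, 164, 143 and 129 CPM in batch 1 and 41.2, 30.5, 33 and 41 CPM in batch 2, a 3.89-fold difference (log2 -1.96 ± 0.13, adjusted p = 5.83e-08). Fads2, a desaturase of polyunsaturated fatty acids, had 266, 271, 336 and 378 against 149, 110.2, 104 and 77.6 CPM (log2 -1.51 ± 0.18). Acaca, acetyl-CoA carboxylase, differed by a log2 fold change of -0.93 ± 0.13, and Dgat2, which completes triglyceride synthesis, had 367, 379, 399 and 355 against 215, 214, 196 and 217 CPM (log2 -0.84 ± 0.1). Each of these 4 was separated without overlap. Scd1, the stearoyl-CoA desaturase, had 2700, 3182, 7527 and 3267 CPM in batch 1 and 2548, 2646, 4423 and 4176 CPM in batch 2, which overlap, and was not called (log2 -0.28 ± 0.39). Its sign turned without batch 1 replicate 3 (log2 0.18).

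Cholesterol synthesis was mixed. Of 24 tested genes 9 were higher in batch 2 and 3 higher in batch 1 (9 and 3 with the GC trend removed), with a median of 0.16. Without batch 1 replicate 3, 1 gene was called higher in batch 1. Hmgcs1, which makes HMG-CoA, had 152, 165, 280.5 and 202 CPM in batch 1 and 590.3, 419, 544 and 871 CPM in batch 2 (log2 1.58 ± 0.26, adjusted p = 0.00166). Insig1, a retention factor of SREBP in the ER, had 106, 109.9, 187 and 103 against 257, 246, 251 and 254 CPM (log2 0.97 ± 0.16), and Fdft1, squalene synthase, was higher in batch 2 as well (log2 0.63 ± 0.14).

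Genes of PPARα and fatty acid oxidation were more often higher in batch 1, with 14 of 28 tested members higher there and 3 higher in batch 2 (9 and 2 with the GC trend removed), and a median of -0.42. Ppara itself, the nuclear receptor of fasting, had 183, 143, 167 and 193 CPM in batch 1 and 71.9, 61.8, 65.5 and 42.1 CPM in batch 2 (log2 -1.51 ± 0.14, adjusted p = 1.41e-06). Acot4, another thioesterase, had 98.6, 94, 92.9 and 108 against 28.9, 53.4, 40.4 and 50.4 CPM (log2 -1.17 ± 0.16), and Acaa1b, a peroxisomal thiolase, had 418, 482, 489 and 489 against 219.7, 269.7, 231 and 232 CPM (log2 -0.98 ± 0.1). Cpt1a, the gate of mitochondrial fatty acid entry, was lower in batch 2 (log2 -0.83 ± 0.12). All 4 were separated without overlap.

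Lipid droplet genes were higher in batch 1 for 9 of 15 tested members and higher in batch 2 for 0, with a median of -0.8 (6, 0 and -0.34 with the GC trend removed). Pnpla2, the triglyceride lipase ATGL, had 74.6, 112, 108 and 113 CPM in batch 1 and 33.9, 38.4, 33.4 and 33.2 CPM in batch 2 (log2 -1.53 ± 0.14, adjusted p = 8.18e-07). Lipe (log2 -1 ± 0.18), Fitm2 (log2 -1.03 ± 0.17) and Mgll (log2 -0.66 ± 0.14, and -0.33 and not called with the GC trend removed), which act in droplet formation or lipolysis, were higher in batch 1 too. Without batch 2 replicate 2, 1 member was called higher in batch 2.

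Lipid transport was split, with 10 of 26 tested apolipoprotein and transport genes higher in batch 1 and 6 higher in batch 2 (6 and 7 with the GC trend removed). Pltp, the phospholipid transfer protein, had 27, 31.8, 46.8 and 30.2 CPM in batch 1 and 7.09, 7.66, 6.59 and 11.2 CPM in batch 2 (log2 -2.14 ± 0.2, adjusted p = 1.41e-06). Lpl, lipoprotein lipase, went the other way, with 15, 17.1, 22.9 and 20.1 against 67.2, 49.1, 67.2 and 91.8 CPM (log2 1.79 ± 0.19, adjusted p = 8.34e-06). Lrp1, a receptor of remnant lipoproteins (log2 -1.32 ± 0.13), and Apoa5, a regulator of plasma triglyceride (log2 -1.11 ± 0.11), were higher in batch 1.

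Of 14 tested bile acid genes 7 were higher in batch 2 and 1 higher in batch 1 (5 and 3 with the GC trend removed). The 1 was Cyp7a1, which catalyses the committed step from cholesterol to bile acids and had 186, 131, 113 and 255 CPM in batch 1 and 67.5, 40.3, 63.3 and 49.2 CPM in batch 2, without overlap (log2 -1.67 ± 0.29, adjusted p = 0.00239). Nr0b2, which encodes SHP, a repressor of Cyp7a1, had 7.12, 8.55, 11.5 and 13 against 19.4, 25.8, 21.1 and 28.7 CPM (log2 1.17 ± 0.19, adjusted p = 1.55e-04). Baat, which conjugates bile acids, had 273, 278, 267 and 271 against 502, 588, 582 and 506 CPM (log2 1 ± 0.1). Cyp2c70, which makes the muricholic acids of mice, had 176, 177, 338 and 254 against 944, 771, 778 and 584 CPM (log2 1.69 ± 0.22). Without batch 1 replicate 1, a second gene was called higher in batch 1.

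Sugar metabolism differed in both directions. Of 14 tested glycolysis and feeding genes 8 were higher in batch 1 and 4 higher in batch 2 (6 and 4 with the GC trend removed). Pklr, liver pyruvate kinase, had 110.2, 105, 121 and 113 CPM in batch 1 and 57.2, 41.2, 44.8 and 44.4 CPM in batch 2 (log2 -1.28 ± 0.12, adjusted p = 1.41e-06), and Pfkl, liver phosphofructokinase (log2 -1.06 ± 0.18), and Tkfc, a kinase of fructose breakdown (log2 -0.89 ± 0.1), were also higher in batch 1. Ppp1r3b, which directs glycogen synthesis, had 123, 104, 82.3 and 113 against 217, 198, 147 and 186 CPM and was higher in batch 2 (log2 0.84 ± 0.14). Of 21 tested genes of gluconeogenesis and fasting 7 were higher in batch 1 and 3 higher in batch 2, which became 2 and 2 with the GC trend removed. Without batch 1 replicate 3, 1 was called higher in batch 2. Creb3l3 (log2 -0.67 ± 0.13, and -0.23 and not called with the GC trend removed) was among the former, and Insig2, an isoform of fasted liver, had 178, 183, 125 and 147 against 389.5, 277, 277 and 369 CPM and was higher in batch 2 (log2 1.07 ± 0.15). Pck1, the gate of gluconeogenesis, overlapped between the batches and was not called (log2 -0.21 ± 0.14, adjusted p = 0.257).

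Of 22 tested genes of urea and amino acid metabolism 7 were higher in batch 2 and 3 higher in batch 1 (5 and 1 with the GC trend removed). Otc, ornithine transcarbamylase, had 429, 429, 510.3 and 481 CPM in batch 1 and 843, 837, 931 and 1043 CPM in batch 2 (log2 0.98 ± 0.11, adjusted p = 6.21e-06), and Arg1, arginase, was higher in batch 2 (log2 0.58 ± 0.11). Tdo2, which breaks down tryptophan (log2 0.6 ± 0.1), and Gnmt, a methyltransferase of glycine (log2 -0.67 ± 0.12), were called in opposite directions, and neither was called with the GC trend removed (0.24 and -0.15). Of 22 tested cytochrome P450 and xenobiotic genes 6 were higher in batch 1 and 5 higher in batch 2 (6 and 2 with the GC trend removed). Cyp3a11, an abundant drug-metabolising P450, had 6330, 6170, 6200 and 6846 against 13910, 10840, 10980 and 11460 CPM (log2 0.89 ± 0.11). Nr1i3, the xenobiotic receptor CAR, had 71.6, 89.2, 83.5 and 104 against 36.2, 45.2, 39.1 and 54.1 CPM (log2 -0.99 ± 0.14), and Ugt1a1, which conjugates bilirubin, was lower in batch 2 (log2 -1.08 ± 0.13). The count of P450 genes higher in batch 2 was 2 without batch 1 replicate 2 or 4, and 3 without batch 1 replicate 1 or batch 2 replicate 3 or 4.

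Genes of protein folding and turnover were more often higher in batch 2. Of 20 tested ER chaperones 12 were higher in batch 2 and 1, Herpud1 (log2 -0.87 ± 0.19), higher in batch 1, with a median of 0.68 and the same counts with the GC trend removed. Hsp90b1, which encodes GRP94, had 706, 677, 699.6 and 649.7 CPM in batch 1 and 1304, 1995, 1560 and 1520 CPM in batch 2 (log2 1.22 ± 0.12, adjusted p = 2.31e-06). Pdia3, a disulfide isomerase, had 533, 544, 497 and 524 against 900.1, 1281, 1111 and 1172 CPM (log2 1.09 ± 0.11), Dnajb11 a log2 fold change of 0.78 ± 0.13 and Pdia6 of 0.61 ± 0.1. All 4 were separated without overlap.

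Temperature-responsive genes, which change with body temperature over the day, were higher in batch 2 for 5 of 14 tested members and higher in batch 1 for 0. Beside heat-responsive genes the list holds the cold-inducible genes Cirbp and Rbm3, and neither was called. With the GC trend removed the counts were 4 and 0. Without batch 1 replicate 3, 3 were higher in batch 2. Without any 1 of batch 1 replicate 1 and batch 2 replicates 2 and 4, 1 was higher in batch 1. Dnaja1 had 61.1, 63.5, 61.6 and 55.9 CPM in batch 1 and 116, 214, 184 and 149 CPM in batch 2 (log2 1.47 ± 0.16, adjusted p = 8.91e-06), and the mitochondrial chaperone Hspe1 had 24, 12.2, 22.3 and 25 against 50.7, 57.1, 73.8 and 68.6 CPM (log2 1.47 ± 0.16). Its partner Hspd1 differed less (log2 0.48 ± 0.1). Hsp90aa1, the inducible cytosolic HSP90, had 51.7, 44, 29.6 and 22.8 against 89.5, 146, 112 and 51.9 CPM (log2 1.52 ± 0.39, adjusted p = 0.0189), and was not called without batch 1 replicate 3 (log2 1.4, adjusted p = 0.0653).

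Of 31 tested proteasome subunits 18 were higher in batch 2 and 1, Psmd3 (log2 -0.78 ± 0.12), higher in batch 1, with a median of 0.39 (18 and 2 with the GC trend removed). Psma4 had 59.6, 68.4, 70.4 and 68.8 CPM in batch 1 and 123, 145, 156 and 184 CPM in batch 2 (log2 1.18 ± 0.13), and Psmb3 (log2 0.97 ± 0.14), Psmd14 (log2 0.84 ± 0.13) and Psmc6 (log2 0.7 ± 0.1) were higher in batch 2 too. Cytosolic ribosomal proteins were higher in batch 2 for 28 of 57 tested genes and higher in batch 1 for 4 (30 and 1 with the GC trend removed, and 2 higher in batch 1 without batch 1 replicate 3), with a median of 0.36. Examples are Rpl35a, with 36.4, 37.9, 37.9 and 37.4 against 70.3, 77.8, 93.6 and 106 CPM (log2 1.21 ± 0.14), and Rps20 (log2 1.14 ± 0.16). Of 74 tested mitochondrial ribosomal proteins 40 were higher in batch 2 and 6 higher in batch 1 (40 and 1 with the GC trend removed), with a median of 0.42. Mrpl42 had 21.4, 28.1, 25.9 and 23.5 against 50.7, 45.3, 60.6 and 58.6 CPM (log2 1.12 ± 0.14), and Mrps18c a log2 fold change of 1.14 ± 0.17. Ribosomal protein genes have many processed pseudogenes that share sequence, and values of single members are uncertain.

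Respiratory chain genes are encoded in the nuclear and the mitochondrial genome. Of 54 tested nuclear genes 31 were higher in batch 2, 3 higher in batch 1 and 20 not called, with a median of 0.33 (36 and 1 with the GC trend removed, median 0.55). Uqcrb, a subunit of complex III, had 19.1, 14.7, 24.7 and 21.3 CPM in batch 1 and 49.4, 72.5, 81.3 and 99.97 CPM in batch 2 (log2 1.82 ± 0.2, adjusted p = 1.31e-05). Cox6c of complex IV had 94.8, 104, 114 and 112 against 198, 243, 278 and 359.6 CPM (log2 1.34 ± 0.15), and Ndufa5 and Ndufb5 of complex I log2 fold changes of 1.23 ± 0.15 and 0.89 ± 0.11. All 7 tested mRNAs encoded by the mitochondrial genome were higher in batch 2, with log2 fold changes of 0.84 to 1.54 (7 and a median of 0.86 with the GC trend removed, against 1.31 before). Their median transcript GC was 37.1%. mt-Nd4 of complex I had the largest difference (log2 1.54 ± 0.18, adjusted p = 3.26e-05), and mt-Nd1 had 4996, 5413, 5786 and 6419 against 10970, 13060, 13880 and 18110 CPM (log2 1.31 ± 0.14). mt-Nd2 (log2 1.2 ± 0.14) and mt-Cytb of complex III (log2 1.34 ± 0.17) lay close to it.

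**Figure D4:**
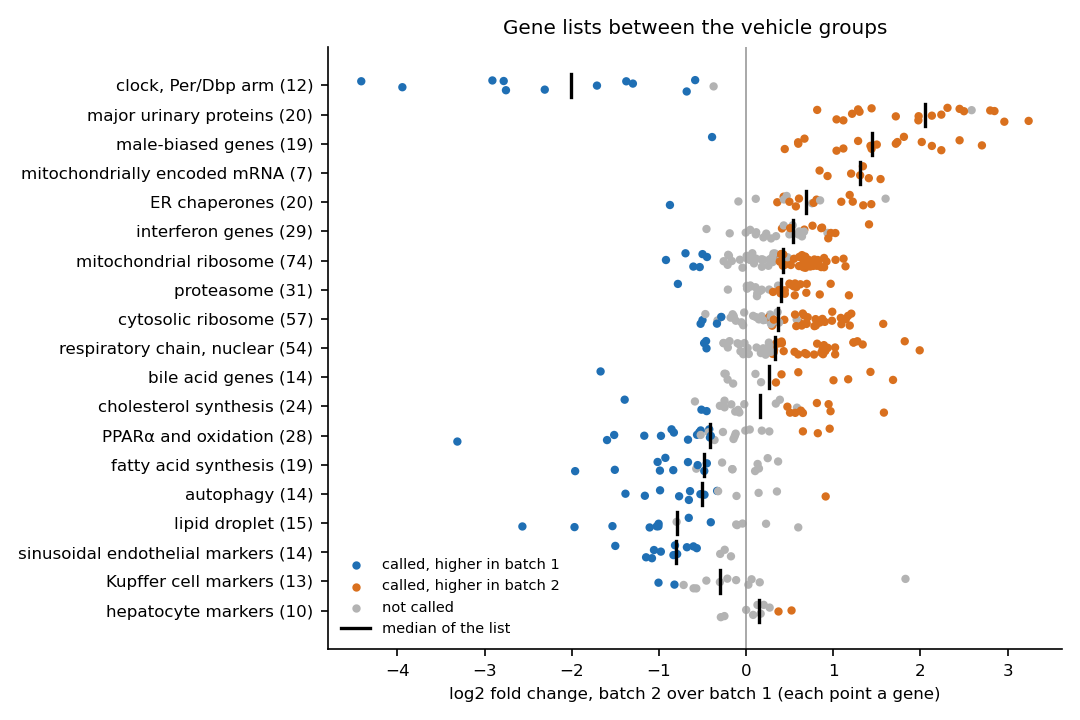
Log2 fold change of batch 2 over batch 1 (horizontal axis) for each tested gene of 19 lists, with the number tested in brackets. Blue points were called higher in batch 1, orange points higher in batch 2 and grey points were not called, and black lines are list medians. The Per/Dbp arm has a median of -2.01 and the major urinary proteins of 2.06.

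The makeup of the libraries moved with the batch. Mitochondrial protein-coding RNA took 4.15, 4.32, 4.9 and 5.26% of counts in the libraries of batch 1 and 7.36, 8.95, 8.78 and 11.8% in those of batch 2. The share of other mitochondrial RNA (percent of counts, mean ± SD, n = 4) was 0.658 ± 0.0287 in batch 1 and 1.25 ± 0.317 in batch 2. The share of the 20 most abundant genes of a library (percent) was 24.6 ± 0.794 in batch 1 and 28 ± 1.29 in batch 2. With these shares and that of the Mup genes the batches did not overlap (exact 2-sided permutation p = 0.0286 for each, the smallest that 4 against 4 libraries can give, and 0.054 adjusted over the 17 values compared, the clock contrast and marker means among them, so none passed 0.05 after adjustment). Small structural RNA was separated as well, at 0.00411% ± 0.000414 and 0.00644% ± 0.000947. After thinning each library to 773499 counts, 12980 to 13080 genes had a read in batch 1 and 12680 to 12960 in batch 2.

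Albumin took 7.52% ± 0.576 of counts in batch 1 and 6.52% ± 0.378 in batch 2, and the haemoglobin genes 0.0259% ± 0.0073 and 0.014% ± 0.00226. Both overlapped between the batches (exact 2-sided permutation p = 0.0571 for each, 0.0809 adjusted). On the TMM scale Alb had a log2 fold change of 0 ± 0.11 and was not called (adjusted p = 0.999).

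**Figure D5:**
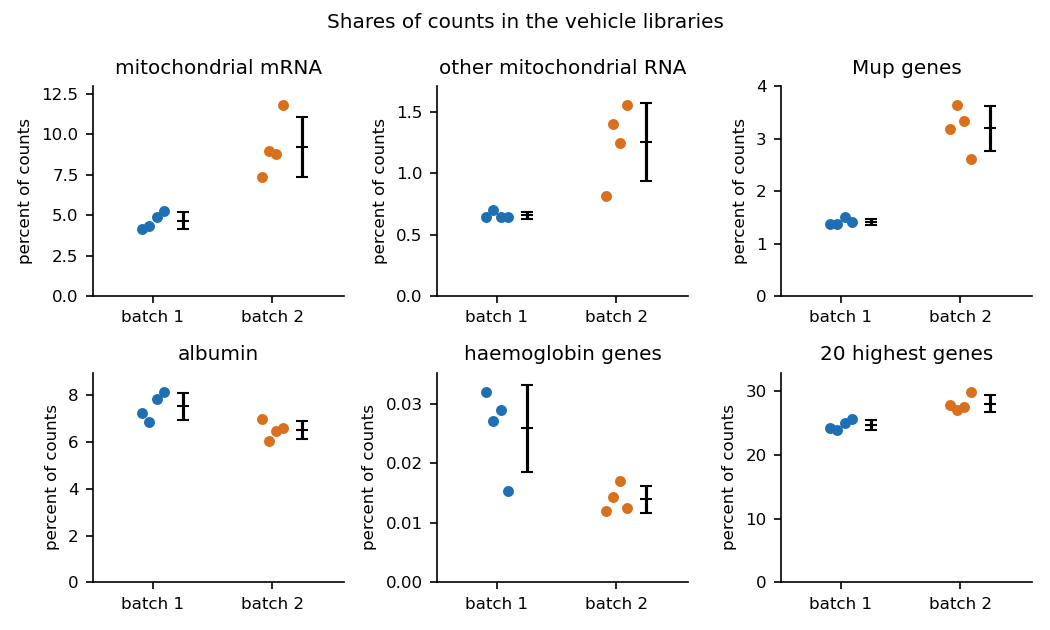
Shares of all counts (percent) taken by 6 classes of genes in the vehicle libraries, blue for batch 1 and orange for batch 2, 1 point per library, with the mean ± SD of 4 libraries in black. Mitochondrial mRNA is 4.15% to 5.26% in batch 1 and 7.36% to 11.8% in batch 2, and haemoglobin overlaps.

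Of a list of 10 long noncoding RNAs 6 were tested, and 4 were higher in batch 2 and 0 higher in batch 1 (4 and 0 with the GC trend removed). Malat1 had 246, 514, 442 and 534 CPM in batch 1 and 879.6, 1062, 1089 and 1522 CPM in batch 2 (log2 1.39 ± 0.26, adjusted p = 0.0025). Neat1, the scaffold of paraspeckles, had 41.6, 159, 79.7 and 104 against 205, 359, 304 and 624 CPM, with a wide spread in both batches (log2 2.03 ± 0.51, adjusted p = 0.0205). It was not called without batch 1 replicate 3 (log2 1.95, adjusted p = 0.0664) or 4 (2.1, adjusted p = 0.0529). Kcnq1ot1 (log2 1.87 ± 0.27) and Gas5 (log2 0.96 ± 0.13) were also higher in batch 2. The RNA of the mitochondrial ribosome followed the mitochondrial mRNAs, with log2 fold changes of 1.27 ± 0.16 for mt-Rnr1 and 1.03 ± 0.17 for mt-Rnr2. The transfer RNA genes mt-Te (2.64 ± 0.45) and mt-Tp (1.66 ± 0.39) were higher in batch 2 too. Of 24 mitochondrial ribosomal and transfer RNA genes 7 were tested, 6 were higher in batch 2 and 1 was higher in batch 1 (log2 -0.44). These counts were the same with the GC trend removed. Rn7sk, the 7SK RNA, was the 1 small structural RNA with enough reads, had 3.37, 3.66, 1.94 and 7.1 against 7.35, 5.34, 7.91 and 8.21 CPM and was not called (log2 0.88 ± 0.35, adjusted p = 0.0548). It was called without batch 1 replicate 4 (log2 1.43) or batch 2 replicate 2 (1.11) and with the GC trend removed (1.38).

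Of 16 tested glucocorticoid-responsive genes 5 were higher in batch 2 and 2 higher in batch 1 (3 and 1 with the GC trend removed). Apart from Cdkn1a and Per1, they include Hsd11b1, which regenerates the hormone (log2 0.55 ± 0.11, and 0.28 and not called with the GC trend removed), and Zbtb16 (log2 1.04 ± 0.23). The 2 became 1 without batch 1 replicate 1, 3 or 4 or batch 2 replicate 1. Of 67 histone genes 3 had enough reads to be tested and all 3 were higher in batch 2 (2 with the GC trend removed), with Hist1h1c, a linker histone with a polyadenylated transcript, at a log2 fold change of 1.38 ± 0.28.

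Autophagy genes were higher in batch 1 for 9 of 14 tested members and higher in batch 2 for 1, the stress gene Ddit4 with a log2 fold change of 0.91 ± 0.3 (5 and 1 with the GC trend removed, and 0 higher in batch 2 without batch 1 replicate 3 or 4 or batch 2 replicate 2). Ulk1, the kinase that starts autophagy, had 99.7, 105, 110.2 and 97.5 CPM in batch 1 and 37.8, 36.6, 47.4 and 38 CPM in batch 2 (log2 -1.38 ± 0.12, adjusted p = 4.67e-07), and Map1lc3b, which encodes LC3B, was higher in batch 1 (log2 -0.52 ± 0.11). Tfeb, a regulator of lysosome genes (log2 -1.16 ± 0.26), and Atg2a (log2 -0.99 ± 0.14) were called higher in batch 1 but not with the GC trend removed (-0.5 and -0.3). Genes of TGFβ and activin signalling were higher in batch 1 for 9 of 19 tested members and higher in batch 2 for 0 (8 and 0 with the GC trend removed). Inhbe, the activin E subunit made by hepatocytes, had 64.1, 84.3, 89.3 and 85.8 against 34.9, 51.1, 50.5 and 35.4 CPM (log2 -0.9 ± 0.15, adjusted p = 2.04e-04). Tgfb1 (log2 -1.36 ± 0.25), Tgfbr2 (log2 -0.88 ± 0.16) and Acvr1b (log2 -0.81 ± 0.18) were higher in batch 1 too.

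Glutathione and NRF2 genes were split, with 4 of 17 tested members higher in batch 2 and 3 higher in batch 1 (5 and 2 with the GC trend removed, and 7 higher in batch 2 without batch 2 replicate 1). Gstp1, a glutathione transferase that is more abundant in male liver, had 141, 169.8, 184 and 220.1 CPM in batch 1 and 555, 619, 539 and 446 CPM in batch 2 (log2 1.59 ± 0.14, adjusted p = 4.67e-07). Hmox1, haem oxygenase, had 51.4, 36.6, 44.2 and 31.2 against 14.2, 13.9, 20.2 and 17.5 CPM and was higher in batch 1 (log2 -1.39 ± 0.17, adjusted p = 1.50e-05). Iron genes were called in both directions, 3 and 3 of 13 (4 and 4 with the GC trend removed), and Tfr2 (log2 -0.98 ± 0.1) and Tmprss6 (log2 -0.97 ± 0.12), which act in the control of hepcidin, were higher in batch 1.

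Genes that mark positions along the liver lobule were called in both directions. Of 15 tested periportal genes 3 were higher in batch 2, Arg1, Cdh1, which encodes E-cadherin (log2 0.89 ± 0.16), and the histidine ammonia-lyase Hal (log2 0.56 ± 0.12), and 2 were higher in batch 1, Sdsl, a serine dehydratase-like enzyme (log2 -0.62 ± 0.22), and Apoa4 (log2 -0.59 ± 0.22), each called in 3 of the 8 fits that leave out 1 library. The 2 became 0 with the GC trend removed and without batch 1 replicate 2 or batch 2 replicate 1 or 3, and 1 without batch 1 replicate 1 or 3 or batch 2 replicate 4, and the 3 became 5 without batch 2 replicate 2. Of 17 tested pericentral genes 4 were higher in batch 2, among them Rgn (log2 0.83 ± 0.11) and the retinal dehydrogenase Aldh1a1 (log2 0.5 ± 0.11), and 2 were higher in batch 1, Cyp7a1 and the glutamate transporter Slc1a2 (log2 -0.49 ± 0.09), which became 4 and 3 with the GC trend removed. The list of Zfp zinc finger genes, many of them transcription factors, had 41 of 204 tested members higher in batch 2 and 28 higher in batch 1. That is 33.8% called, against 39.9% of all tested genes. With the GC trend removed the counts were 9 and 24, against 1468 and 1370 of all 9928 tested genes. The 41 became 25 without batch 1 replicate 3 and 26 without batch 1 replicate 4. Zfp771 (log2 -1.63 ± 0.19), Zfp335 (log2 -1.74 ± 0.23) and Zfp574 (log2 -1.4 ± 0.2) were called higher in batch 1 with the GC trend removed as well, and Zfp598 (log2 -0.78 ± 0.13) was not (-0.09).

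Plasma and immune genes gave no single direction. Of 33 tested acute-phase genes 4 were higher in batch 2 and 6 higher in batch 1 (1 and 6 with the GC trend removed, 3 higher in batch 1 without batch 2 replicate 1, and 2 higher in batch 2 without batch 1 replicate 3 or 4). Saa1, serum amyloid A, spread over a wide range within each batch, with 1834, 2119, 167 and 208 CPM in batch 1 and 489, 579, 4449 and 693 CPM in batch 2 (log2 0.53 ± 1.19, not called), and its sign turned without batch 2 replicate 3 (log2 -0.85). The serpins Serpina3k (log2 0.92 ± 0.12) and Serpina3m (log2 -0.72 ± 0.15), close copies of each other, were called in opposite directions, so their single values are uncertain. Lrg1 had 743, 1093, 562 and 639 against 250.4, 269, 313 and 207 CPM and was higher in batch 1 (log2 -1.54 ± 0.2, adjusted p = 1.15e-04). Of 32 tested complement and coagulation genes 9 were higher in batch 2 and 7 higher in batch 1 (7 and 5 with the GC trend removed), with C9 (log2 1.01 ± 0.13) and Mbl1 (log2 0.71 ± 0.1) higher in batch 2 and F12 (log2 -0.98 ± 0.11) and C4b (log2 -0.88 ± 0.14) higher in batch 1.

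Interferon genes were higher in batch 2 for 10 of 29 tested members and higher in batch 1 for 0, with a median of 0.53 (10 and 0 with the GC trend removed). Ifi47, an interferon-inducible GTPase, had 19.5, 15.9, 18.2 and 13 CPM in batch 1 and 48.6, 33.3, 71.2 and 32.1 CPM in batch 2 (log2 1.41 ± 0.26, adjusted p = 0.00135). Irgm1 of the same family (log2 0.86 ± 0.14) and the RNA sensor Ifih1 (log2 0.76 ± 0.18, and 0.5 and not called with the GC trend removed) were higher in batch 2. The count was 19 without batch 2 replicate 2, the deepest library. Receptors of TNF went the other way: Tnfrsf1a had 109.8, 106, 107 and 105 against 57.5, 58.8, 64.6 and 53 CPM (log2 -0.87 ± 0.11), and Tnfrsf1b differed likewise (log2 -1.09 ± 0.16). Of 11 tested genes of that NF-κB list 3 were higher in batch 1 and 0 in batch 2 (2 and 0 with the GC trend removed), the third being Rela, the p65 subunit (log2 -0.96 ± 0.14, and -0.28 and not called with the GC trend removed). Of 17 tested immediate early genes 2 were higher in batch 1 and 0 in batch 2 (1 and 1 with the GC trend removed), Jun (log2 -1.18 ± 0.21) and Ier2 (log2 -0.67 ± 0.17, and 0 with the GC trend removed). A member higher in batch 2 appeared in the first of these lists without batch 2 replicate 1 and in the second without batch 2 replicate 2.

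Markers of the cell types of the liver were read to describe the makeup of the tissue. In bulk RNA, fewer cells of a type and less RNA per cell cannot be told apart. The libraries were dominated by hepatocyte transcripts: all 10 hepatocyte markers were tested, 2 were higher in batch 2 and 0 higher in batch 1 (2 and 1 with the GC trend removed), and their mean log2 CPM was 11.5 ± 0.135 in batch 1 and 11.6 ± 0.0439 in batch 2. The 2 were Serpina1a (log2 0.52 ± 0.12), which has near-identical copies, and Fgb, fibrinogen β (log2 0.37 ± 0.13). Fgb was not called in 6 of the 8 fits that leave out 1 library (each of batch 1 and replicates 1 and 3 of batch 2, log2 0.27 to 0.4) or with the GC trend removed (0.15).

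Markers of liver sinusoidal endothelial cells, which line the blood channels, were higher in batch 1 for 11 of 14 tested members and higher in batch 2 for 0, with a median of -0.8 (12 and a median of -0.66 with the GC trend removed). Their mean log2 CPM was 5.23, 4.82, 5.1 and 5.23 in the libraries of batch 1 and 4.51, 4.32, 4.15 and 4.54 in those of batch 2, without overlap. Eng, endoglin, had 53.2, 56.2, 61.2 and 54.9 CPM in batch 1 and 24.7, 21.3, 16.2 and 15.7 CPM in batch 2 (log2 -1.5 ± 0.14, adjusted p = 1.41e-06). Stab1, a scavenger receptor, had 33, 36.6, 34.7 and 41.7 against 14.2, 16.8, 14.9 and 19.8 CPM (log2 -1.15 ± 0.14), Kdr, the VEGF receptor, had 66.7, 41.5, 56.4 and 65.1 against 36.5, 31.5, 29.9 and 34.7 CPM (log2 -0.83 ± 0.14), and Stab2 had a log2 fold change of -0.98 ± 0.16. The part of endothelial RNA in the other differences, such as those of TGFβ genes, was not tested.

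Kupffer cells, the resident macrophages, showed less. Of 13 tested markers 2 were higher in batch 1 (Csf1r, log2 -1.01 ± 0.26, and Cd68, log2 -0.82 ± 0.24) and 0 higher in batch 2. That is 15.4% called, against 39.9% of all tested genes. The log2 fold changes of the 13 ran from -1.01 to 1.83, with a median of -0.3. With the GC trend removed 0 were called, and the count was 4 without batch 2 replicate 1 and 1 without batch 1 replicate 1 or 3 or batch 2 replicate 2. Cd68 was among the calls lost without batch 1 replicate 1 (log2 -0.7), batch 1 replicate 3 (-0.73) or batch 2 replicate 2 (-0.61). Their mean log2 CPM overlapped between batches, 4.95 ± 0.227 in batch 1 and 4.76 ± 0.49 in batch 2. Of 10 monocyte and dendritic cell markers 2 had enough reads to be tested, H2-Ab1 and Cd74, antigen presentation genes of dendritic cells and macrophages. Both were higher in batch 1. H2-Ab1 had 42.7, 28.1, 33.1 and 17.6 against 10.8, 8.72, 13.6 and 10.1 CPM (log2 -1.58 ± 0.24). Cd74 had a log2 fold change of -0.89 ± 0.22 and was not called with the GC trend removed (-0.45). Of 8 B and plasma cell markers 2 were tested. Ighm was higher in batch 1 (log2 -1.39 ± 0.3), and the other was not called (log2 -0.08).

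Stellate cell and fibroblast markers were called in both directions, 2 and 3 of 12, with 0 called after the GC trend was removed. The 2 higher in batch 2 became 0 without batch 1 replicate 2 or 4 or batch 2 replicate 4, and 1 without batch 1 replicate 1 or 3 or batch 2 replicate 1. The 3 higher in batch 1 became 1 without batch 1 replicate 3 or 4 or batch 2 replicate 2 or 3. They were Lrat, which stores retinol (log2 0.6 ± 0.21), and Dcn, decorin (log2 0.34 ± 0.13), in batch 2 and Colec11 (log2 -0.45 ± 0.13), Ecm1 (log2 -0.41 ± 0.13) and Hand2 (log2 -0.75 ± 0.28) in batch 1. The calls of Lrat, Dcn, Ecm1 and Hand2 held in 3, 3, 4 and 1 of the 8 fits that leave out 1 library, and that of Colec11 in all 8. Their mean log2 CPM overlapped, 4.21 ± 0.266 in batch 1 and 4.25 ± 0.211 in batch 2. Of cholangiocyte markers 4 were tested and 3 were higher in batch 2 (3 with the GC trend removed as well): Sox9 had 3, 6.11, 4.11 and 3.09 CPM in batch 1 and 6.83, 12.1, 11.9 and 8.58 CPM in batch 2 (log2 1.42 ± 0.26), Krt18, a keratin that hepatocytes also make, had a log2 fold change of 0.83 ± 0.13, and Spp1 of 0.63 ± 0.19 (not called without batch 1 replicate 4, log2 0.49, or with the GC trend removed, 0.37). The defining keratins Krt19 (47 and 43 counts over the batch) and Krt7 (25 and 31 counts) were too low to test.

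Blood and stray tissue were also looked for. Of 5 tested erythroid genes 3 were higher in batch 1 and 0 higher in batch 2 (2 and 0 with the GC trend removed, and 5 higher in batch 1 without batch 1 replicate 4 or batch 2 replicate 3). The α-globin copies Hba-a1 and Hba-a2 share sequence and are uncertain as single genes. Hba-a1 had 36.4, 37.9, 33.9 and 16.1 against 9.19, 9.97, 4.39 and 4.85 CPM (log2 -1.91 ± 0.3) and Hba-a2 a log2 fold change of -2.16 ± 0.32, while Alas2 of haem synthesis differed less (log2 -0.46 ± 0.13, and -0.24 and not called with the GC trend removed). Of T and NK cell (10), neutrophil (9) and skeletal muscle (6) markers 0 had enough reads to be tested, with at most 48, 109 and 11 counts in a batch. Of pancreatic acinar markers 1 of 16 was tested, Cela1, with 6.75, 4.89, 10.1 and 31.2 CPM in batch 1 and 24.9, 18, 16.7 and 18.3 CPM in batch 2 (log2 0.44 ± 0.49, not called). Replicate 4 of batch 1 stood apart in it, and without that library Cela1 was called higher in batch 2 (log2 1.21). Fabp4 was the 1 tested of 6 adipocyte markers and was not called (log2 0.6 ± 0.34), but was called higher in batch 2 without batch 2 replicate 2 (0.88). Another adipocyte marker, which had too few reads to be tested with all 8 libraries, was called higher in batch 1 without batch 1 replicate 3 or any 1 of the libraries of batch 2.

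The batches can also be compared through libraries that hold no vehicle, 8 libraries with EPDR1 or FCN2 in batch 2 against 3 with LBP in batch 1, where protein and batch cannot be told apart. Of 10679 genes tested there, 1855 (17.4%) were called, 400 (3.75%) higher in batch 2 and 1455 (13.6%) higher in batch 1. Of the 3926 genes called between the vehicles and tested in both, 3253 (82.9%) had the same sign, against 71.3% of all 9860 genes tested in both. Called in both comparisons were 1011 genes in the same direction, which is 25.8% of the vehicle calls and 56.9% of the other calls, and 75 in opposite directions. Without LBP replicate 2, 1572 of 10909 genes (14.4%) were called, 694 (6.36%) higher in batch 2 and 878 (8.05%) higher in batch 1, and 3744 of 3943 vehicle calls (95%) had the same sign, against 79.9% of all 9895 genes. In that fit 1225 genes were called in both comparisons in the same direction, which is 31.1% of the vehicle calls and 80.9% of the other calls, and 0 in opposite directions. In the comparison with all 3 LBP libraries Arntl had a log2 fold change of 3.78, Usp2 of -3.92, Per1 of -2.14, Per3 of -2.25, Tef of -1.8, Elovl3 of 1.82 and Fads2 of -1.39, each with the sign seen between the vehicles. Of 177 genes printed here with a call between the vehicles and tested in both, 16 had the opposite sign there, and 7 of 179 did without LBP replicate 2. Among the 16, Krt18 (log2 -2.36, adjusted p = 0.0249 in edgeR) and Psmb3 (-1.69, adjusted p = 0.0469) were called the opposite way, and Hsp90aa1 (-1.35), Rps20 (-1.58), mt-Tp (-1.64), Hsp90b1 (-0.74) and Mbl1 (-0.79) were not called. Without LBP replicate 2, 0 of the 7 were called.

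Gene groups that were more often higher in batch 2 between the vehicles gave other counts in that comparison. With all 3 LBP libraries, 1 of 31 proteasome genes was called higher in batch 2 and 7 higher in batch 1 (median log2 -0.45), against 3 and 1 (0.17) without LBP replicate 2. Cytosolic ribosomal proteins had 4 and 17 of 64 (-0.25), against 7 and 1 (0.14). Mitochondrial ribosomal proteins had 5 and 15 of 75 (-0.09), against 15 and 0 (0.27). Nuclear respiratory chain genes had 5 and 9 of 54 (-0.19), against 12 and 0 (0.28). In these 4 groups the sign of the median turned with that 1 library. ER chaperones had 0 and 1 of 20 with and without it (-0.24 and -0.09), so their median had the opposite sign in both fits. Temperature-responsive genes had 0 and 3 of 14 (-0.08), against 1 and 1 (-0.05). Their median was 0.42 between the vehicles, so its sign was opposite in both fits too. The Per/Dbp arm had 0 and 4 of 9 (-1.3), against 0 and 7 of 11 (-1.87), and the major urinary proteins 2 and 0 of 20 (1.12), against 1 and 0 (0.84), with the signs seen between the vehicles.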

How the data were processed

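Liver RNA of 8 vehicle samples was sequenced in pairs of 50 bp on a HiSeq 4000, per the labels' protocols. The submitters' processing notes name STAR 2.6.0c and GRCm38. The authors deposited a table of raw read counts per gene, made with featureCounts 1.6.3 and Ensembl 95 annotation with no option for strand, pairs or multiply mapped reads set, per the file headers. Reads that match overlapping genes or several near-identical copies may be left out, so levels of such genes are uncertain. Total counts per library were 773499 to 21892416. Their depth limits low genes, and intervals cover counting error only.

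Counts were fitted with edgeR 4.0.16 (filterByExpr, TMM, robust quasi-likelihood, batch as the 1 term) on the 8 libraries alone, with Benjamini-Hochberg adjustment over the 9928 genes kept. The procedure was first run on simulated counts in which 200 of 9928 genes were changed. It recovered 87% of 2-fold and 100% of 4-fold changes and called 19 unchanged genes. A GC trend or a share of changed genes as large as the share called here was not simulated. SE is the absolute log2 fold change divided by the square root of F. Shares and means per library were compared with exact 2-sided permutation tests over 70 splits. Transcript GC and length came from the annotation, and promoters from RefSeq. Alternatives were DESeq2 1.42.0, limma 3.58.1 with voom, other filters and scalings, thinning, all 23 libraries, removed length or GC trends, a replicate block and leaving out each library. The groups and gene lists were chosen with earlier results of these data known. Named were the 10 genes with the largest difference in each direction (called, no overlap, at least 5 CPM in the higher batch, no predicted name), all measured clock genes, up to 4 called members of each other list by smallest p (or 1 where none was called), and Alb, Saa1, Cyp7a1, Pck1, Srebf1, Ppara, Scd1, mt-Nd2, Rn7sk and Malat1. Some genes that the rule names are not reported here, though counts, medians and the clock contrast include them. Apoa4, Cirbp, Cyp2d9, Dcn, Ddit4, Herpud1, Psmd3 and Rbm3 were named after their values were seen.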

Additional observations from a re-analysis of the deposited data

Results flagged for a closer look

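Of 188 groups of 4 vehicle libraries examined for the values printed by library, 13 held a library that stood apart from the other 3 by Dixon's criterion. Chance alone puts about 1 in 20 groups past it. In batch 1, replicate 2 had other mitochondrial RNA at 0.701% of counts (the others 0.641% to 0.647%). Replicate 4 of batch 1 had pancreatic acinar genes at 0.0135% (0.000909% to 0.00115%) and Mup18 at 6.48 CPM (3.08 to 3.66 CPM).

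Lipid genes made up several of the rest. Replicate 3 of batch 1 had Scd1 at 7530 CPM (2700 to 3270 CPM) and Insig1 at 187 CPM (103 to 110 CPM). Replicate 1 of batch 1 had Acaa1b at 418 CPM (482 to 489 CPM) and Pnpla2 at 74.6 CPM (108 to 113 CPM). In batch 2, replicate 2 had Pnpla2 at 38.4 CPM (33.2 to 33.9 CPM) and replicate 3 had Dgat2 at 196 CPM (214 to 217 CPM).

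Replicate 3 of batch 2 also had Wee1 at 3.51 CPM (2.1 to 2.26 CPM), Ulk1 at 47.4 CPM (36.6 to 38 CPM) and Saa1 at 4450 CPM (489 to 693 CPM). Replicate 4 of batch 2 had Cyp7b1 at 290 CPM (581 to 634 CPM). The calls of Wee1, Mup18, Insig1, Acaa1b, Pnpla2, Dgat2, Ulk1 and Cyp7b1 were kept in each of the 8 fits that leave out 1 library.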

How the results depend on the processing

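The 3962 called genes became 3080 to 4000 when 1 library was left out (1493 to 2012 higher in batch 2 and 1587 to 1988 higher in batch 1), and 3455 with DESeq2. A fit of all 23 libraries called 1456 (647 higher in batch 2, 809 higher in batch 1), and 3715 once LBP replicate 2 was dropped from it. Thinning every library to the shallowest total tested 6517 genes and called 2064 (1030 and 1034). With the GC trend removed 2838 were called, 1370 of them higher in batch 1. The clock contrast was -3.15 to -2.62 when 1 library was left out. Of the 181 called genes among the 193 printed with a fold change, 168 were called in each of the 8 fits that leave out 1 library and 150 with the GC trend removed.

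Some signs turned. With the GC trend removed Alb was -0.07, Csnk1e 0.13, Dcn -0.09, Ecm1 0.1, Ier2 0.00, Pck1 0.03, Sdsl 0.04 and Timeless 0.09 (log2). Alb was -0.04 with the exon-length trend removed, -0.00 with the stricter filter, with all 23 libraries and after thinning, and -0.04 to 0.06 when 1 library was left out. Without 1 library, Timeless was -0.28 to 0.04 (highest without batch 1 replicate 3), Scd1 -0.41 to 0.18 (highest without batch 1 replicate 3) and Saa1 -0.85 to 1.08 (lowest without batch 2 replicate 3). The difference was -0.00254 to 0.00166 percentage points for the acinar share (highest without batch 1 replicate 4), -0.36 to 0.0356 for the Kupffer marker mean (highest without batch 2 replicate 2) and -0.0771 to 0.119 for the stellate marker mean (below 0 without batch 1 replicate 2 or batch 2 replicate 4).

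The replicate numbers did not pair the samples: same-numbered libraries correlated at 0.062, 0.087, -0.024 and 0.009 in their deviations from the batch means. With the replicate number as a block, 3885 genes were called (1870 and 2015), of which 3611 were among the 3962. The causes of these shifts were not tested. Depth limits genes of low count, since the shallowest library holds 773499 counts, and 9928 of the 54838 genes were tested.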
